A study of Mus musculus with 10 samples.

Results

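The MHC class I pathway of mouse liver was followed through 10 genes chosen by name: the class I chains H2-K1, H2-D1 and B2m, the peptide transport and loading genes Tap1, Tap2 and Tapbp, the immunoproteasome subunits Psmb8, Psmb9 and Psmb10, and the regulator Nlrc5. They are 10 of the 24062 genes in the deposited table. All 10 were among the 12648 genes tested, those whose normalised read count reached 1 or more in 2 or more libraries.

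Messenger RNA was sequenced from 2 liver tumours and 8 liver pools. Each tumour, called hepatocellular carcinoma by its label, came from 1 mouse kept for 24 weeks on Western diet with carbon tetrachloride (CCl4), a liver toxin. The liver pools held tissue of 4 mice each and covered Western diet with CCl4, normal diet with CCl4, Western diet with oil (the vehicle) and normal diet with oil, with 1 pool at 12 and 1 at 24 weeks. The labels used here give no strain, sex, age, CCl4 dose or route. With 1 pool per condition, the pools of 12 and 24 weeks stood in as repeats, so the p-values below measure how far those pools differed from each other and say nothing of variation among mice. All changes are log2 fold changes of the normalised read count plus 1, with the standard error (SE) of the limma fit, and p-values were adjusted over all tested genes. A gene is said to have risen or fallen where its adjusted p was under 0.05. In such bulk tissue, fewer cells of a type and less RNA per cell cannot be told apart.

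Class I molecules carry peptides from proteins made inside a cell to its surface, where CD8 T cells inspect them and natural killer cells sense their absence. The heavy chains H2-K1 and H2-D1 pair with beta-2-microglobulin (B2m). Peptides come from the proteasome, enter the endoplasmic reticulum through the transporter Tap1-Tap2, and are loaded onto class I with the help of tapasin (Tapbp). Interferon gamma induces Psmb8, Psmb9 and Psmb10, which take the place of the catalytic subunits Psmb5, Psmb6 and Psmb7 in the immunoproteasome. Nlrc5 is the transactivator of the class I genes and binds no DNA itself: it joins factors on a shared promoter module. In healthy liver, hepatocytes carry little class I on their surface compared with leukocytes.

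Most of the members lie close together on the genome. In the GENCODE annotation of GRCm38 (the build mm10), 7 of them are on chromosome 17, in the mouse MHC: Tapbp (chr17:33915899-33929292, plus strand), H2-K1 (chr17:33996017-34000347, minus strand), Psmb9 (chr17:34181987-34187764, minus strand), Tap1 (chr17:34187553-34197225, plus strand), Psmb8 (chr17:34197721-34201454, plus strand), Tap2 (chr17:34203527-34216321, plus strand) and H2-D1 (chr17:35262730-35267499, plus strand). B2m is at chr2:122147686-122153083 (plus strand), Psmb10 at chr8:105935735-105938444 (minus strand) and Nlrc5 at chr8:94434356-94527272 (plus strand). Tap1 and Psmb9 run in opposite directions from start sites 226 bases apart in the RefSeq windows, and their annotated exons overlap by 212 bases, 3.87% of the exon length of Tap1 and 5.79% of that of Psmb9. Whether counting used strand is not given in the sources used here, so reads in that overlap cannot be assigned. Tapbp shares 149 exonic bases with Zbtb22 on the same strand. H2-K1 and H2-D1 are close paralogs, so reads may have been split between them, and a difference between them is uncertain to that extent.

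Upstream sequences from RefSeq (GRCm38.p6) were matched for 8 of the 10 members. Tap2 and Nlrc5 had no entry. The sequences of H2-K1, H2-D1, B2m and Tap1 are shown because they are the class I chains and a peptide transporter gene. Each is the 250 bases before the annotated start site, read 5′ to 3′ on the gene's own strand: chr17:34000348-34000597 (minus) for H2-K1, chr17:35262844-35263093 (plus) for H2-D1, chr2:122147437-122147686 (plus) for B2m and chr17:34187306-34187555 (plus) for Tap1. Capitals mark matches, on either strand, to the Y box CCAAT, the CRE core TGACG, the interferon regulatory factor pair GAANNGAAA, the interferon response element GAAANNGAAA (1 base longer, so that a match to it is not also a match to the pair) or the kappa-B consensus.
H2-K1: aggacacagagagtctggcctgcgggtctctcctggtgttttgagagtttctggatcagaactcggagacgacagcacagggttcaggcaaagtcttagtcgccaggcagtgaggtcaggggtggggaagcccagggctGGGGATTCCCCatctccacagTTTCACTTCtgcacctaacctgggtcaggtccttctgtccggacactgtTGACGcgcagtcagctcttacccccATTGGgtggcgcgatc
H2-D1: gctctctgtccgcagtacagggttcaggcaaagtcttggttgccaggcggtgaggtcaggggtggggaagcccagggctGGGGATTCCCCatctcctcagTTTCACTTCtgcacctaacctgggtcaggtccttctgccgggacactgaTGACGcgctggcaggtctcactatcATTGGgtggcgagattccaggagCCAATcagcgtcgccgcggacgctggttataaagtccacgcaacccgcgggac
B2m: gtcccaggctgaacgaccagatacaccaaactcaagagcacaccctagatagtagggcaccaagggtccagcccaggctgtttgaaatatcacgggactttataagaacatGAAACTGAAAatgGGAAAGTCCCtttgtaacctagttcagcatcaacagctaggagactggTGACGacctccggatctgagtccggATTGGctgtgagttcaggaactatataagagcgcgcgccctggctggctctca
Tap1: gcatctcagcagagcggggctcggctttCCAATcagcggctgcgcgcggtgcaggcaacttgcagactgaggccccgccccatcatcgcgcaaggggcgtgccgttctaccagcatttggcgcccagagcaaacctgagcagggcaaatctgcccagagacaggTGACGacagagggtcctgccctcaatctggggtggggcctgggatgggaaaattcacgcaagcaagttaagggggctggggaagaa

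Laid over each other without gaps, 166 of the 190 bases that the H2-K1 and H2-D1 windows share were identical (87.4%), and both held, in the same order, the kappa-B match, the interferon regulatory factor pair, the CRE core and the Y box. RefSeq lists another start site for H2-K1, 14 bases away, whose window holds 2 Y boxes, as does that of H2-D1, where the H2-K1 window shown holds 1. Of the 8 members with a window, 6 held a Y box (H2-K1, H2-D1, B2m, Tap1, Tapbp and Psmb9), against 33.8% of all 32851 RefSeq promoter windows of the same length. The CRE core was in 5 of 8, against 17.8% of all windows. The windows of Tap1 and Psmb9 overlap on opposite strands, and the same Y box and the same CRE core were counted for both genes. The kappa-B consensus was in 3 of 8 (H2-K1, H2-D1 and B2m), against 7.25% of all, the interferon regulatory factor pair in 2 of 8 (H2-K1 and H2-D1), against 6.31%, and the interferon response element in 1 of 8 (B2m), against 2.98%. The motifs were chosen with these sequences in view. In H2-K1, H2-D1 and B2m the CRE core came before the Y box, whereas in Tap1 the Y box came first, at -222, and the CRE core at -86. A match is a run of letters and no measured binding site.

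Read totals ran from 23206229 to 30137802 per library, and the members from 225 reads (Nlrc5 in a normal-diet oil pool) to 63270 reads (B2m in a Western-diet CCl4 pool). The hepatocyte gene Alb had the most reads in all 10 libraries, with 6.47% to 17.7% of the signal, the highest share being that of tumour 2.

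Per kilobase of exon, B2m and H2-K1 stood far above the rest of the pathway. The median over the 8 liver pools was 2363 normalised reads per kilobase for B2m, 499 for H2-K1 and 87.1 for H2-D1. Tapbp followed at 28.4 and Psmb10 at 17.4. Psmb8 and Tap2 had similar medians, 8.003 and 7.743, with liver ranges of 6.98 to 11.2 and 6.50 to 10.1, and Tap1 and Psmb9 were also within each other's range, at 4.81 and 4.63. Nlrc5 was the lowest at 1.88. The constitutive subunits Psmb5, Psmb6 and Psmb7 had medians of 57.8, 53.0 and 35.7, so on this scale each immunoproteasome subunit was below the subunit it replaces. Exon length here counts all annotated exon bases of a gene: 3381 for Psmb8 and 3660 for Psmb9, against 899 for Psmb5 and 1872 for Psmb6. A gene whose transcripts are mostly shorter than that is set too low. The size of these gaps and the order of genes with near values are uncertain to that extent. The members with the higher levels varied least among the livers: the highest pool exceeded the lowest 1.31-fold for H2-K1, 1.33-fold for B2m and 1.39-fold for H2-D1, against 1.95-fold for Nlrc5, 2.26-fold for Psmb9 and 2.73-fold for Tap1.

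**Figure D1:**
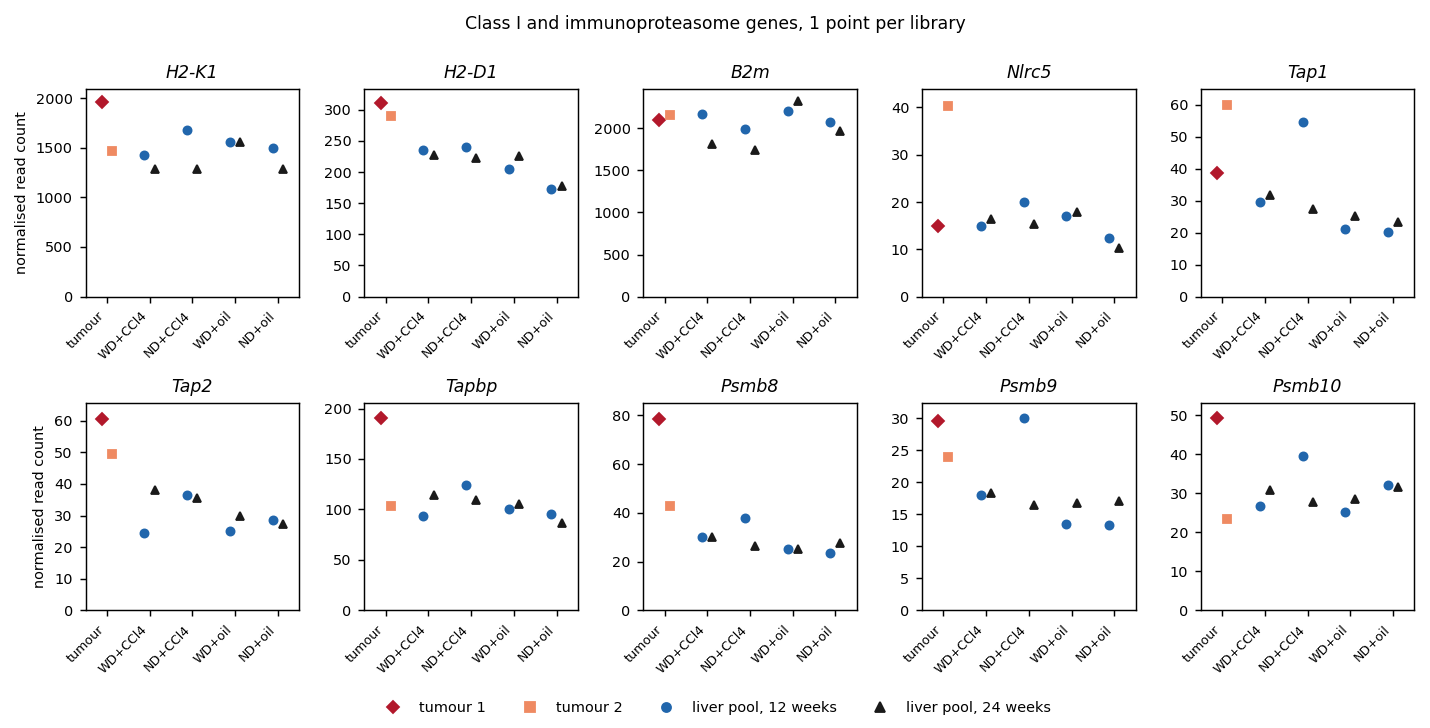
Normalised read count of each gene (y axis, linear, from 0) in every library, with 1 point per library. Tumours are on the left, then Western diet (WD) with CCl4, normal diet (ND) with CCl4, Western diet with oil and normal diet with oil, and the marker shape gives tumour 1 or 2 or the duration of a liver pool. Both tumours lie above all 8 liver pools for H2-D1, Tap2 and Psmb8, and the normal-diet CCl4 pool of 12 weeks is the highest liver pool for 8 of the 10 genes.

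CCl4 was compared with oil first on normal diet, then on Western diet and then over both, to ask what the toxin did to class I genes. Tap1 and H2-D1 rose with CCl4, and Nlrc5 rose on normal diet, while the most abundant members, B2m and H2-K1, gave no call in any comparison. On normal diet 2 of the 10 members rose and none fell, against 26.0% of all tested genes called, so the count is near the background. The median change of the members there was 0.35 with 9 of 10 above 0, beside a median of 0.00 and 50.4% above 0 over all tested genes. On Western diet none was called in limma, edgeR or DESeq2, with none at an unadjusted p under 0.05, against 6.82% of all genes called, and the median of the members was 0.10. Averaged over both diets 2 of 10 rose, against 33.2% of all genes called, with a median of 0.24. Over all tested genes the median change lay between -0.03 and 0.02 in every comparison. None of the members' calls with CCl4 held without the filter on low values or with all 10 libraries in 1 fit. The comparisons share pools, so they are not independent of each other. Below, the 2 CCl4 pools of a diet are also said to overlap or not with its 2 oil pools. The share of all tested genes separated in this way was not computed, so such a separation only describes these pools.

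H2-D1, a heavy chain, had normalised read counts of 241 and 223 in the normal-diet CCl4 pools of 12 and 24 weeks, against 173 and 177 in the normal-diet oil pools. On Western diet it had 235 and 228 in the CCl4 pools, against 204 and 226 in the oil pools. The normal-diet groups do not overlap, the CCl4 pool was higher in all 4 pairs, and the Western-diet oil pool of 24 weeks reached the level of the CCl4 pools. H2-D1 rose by 0.40 ± 0.11 with CCl4 on normal diet (SE, adjusted p = 0.031, 2 pools against 2) and by 0.25 ± 0.08 over both diets (adjusted p = 0.039, 4 against 4), and its change on Western diet was 0.10 ± 0.11 (adjusted p = 0.616). With quantile normalization the normal-diet value was 0.62 and that over both diets 0.44. The normal-diet call held without either Western-diet CCl4 pool and was lost without any of the other 6 pools. In those fits the adjusted p was 0.0849 and 0.114 with the oil pool of 12 or 24 weeks on normal diet left out, 0.198 and 0.0999 with the CCl4 pools left out, and 0.0685 and 0.0681 with the oil pools on Western diet left out. Over both diets no fit with a pool left out kept the call of H2-D1, with values of 0.21 to 0.30.

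H2-K1, the other heavy chain, had counts of 1679.7 and 1289 in the normal-diet CCl4 pools of 12 and 24 weeks, against 1501 and 1289.5 in the oil pools. On Western diet the counts of H2-K1 were 1428 and 1286 in the CCl4 pools, against 1561 and 1564 in the oil pools. Groups overlapped on normal diet, and on Western diet both CCl4 pools were below both oil pools. The change of H2-K1 was 0.08 ± 0.16 on normal diet and -0.21 ± 0.16 on Western diet (adjusted p = 0.732 and 0.457). B2m, the shared light chain, had 1994 and 1739 in the normal-diet CCl4 pools, against 2071 and 1964 in the oil pools, and 2175 and 1818 in the Western-diet CCl4 pools, against 2203 and 2319.6 in the oil pools. B2m was lower in the CCl4 pool in all 4 pairs, with a change of -0.15 ± 0.12 over both diets that did not pass the test (adjusted p = 0.349). Under quantile normalization both changed sign over both diets, to 0.29 for H2-K1 and 0.25 for B2m, and neither passed (adjusted p = 0.0597 and 0.0619). The direction of these abundant transcripts therefore depends on the scaling.

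Tap1, a subunit of the peptide transporter, had 54.7 and 27.5 in the normal-diet CCl4 pools of 12 and 24 weeks, against 20.1 and 23.4 in the oil pools. On Western diet Tap1 had 29.5 and 31.7 in the CCl4 pools, against 21.0 and 25.1 in the oil pools. It was the only member with all 4 CCl4 pools above all 4 oil pools, a separation that 13.6% of all tested genes showed. Tap1 rose by 0.61 ± 0.19 over both diets (adjusted p = 0.037), with 0.81 ± 0.27 on normal diet (adjusted p = 0.052) and 0.40 ± 0.27 on Western diet (adjusted p = 0.396). The normal-diet change of Tap1 missed the threshold in limma and passed it in edgeR (adjusted p = 0.042), in DESeq2 (adjusted p = 0.0083) and in limma with pseudocount 0.1 (adjusted p = 0.049). Leaving out the CCl4 pool of 12 weeks on normal diet, Tap1 was at 0.32 over both diets and no longer called (adjusted p = 0.0588). Its call was also lost without either normal-diet oil pool, either Western-diet oil pool or the Western-diet CCl4 pool of 24 weeks, with adjusted p = 0.0577 to 0.167, and the value was 0.89 with the 24-week CCl4 pool on normal diet left out (adjusted p = 0.00129).

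Tap2, the partner of Tap1, had 36.5 and 35.6 in the normal-diet CCl4 pools, against 28.7 and 27.2 in the oil pools, and 24.6 and 38.0 in the Western-diet CCl4 pools, against 25.0 and 29.8 in the oil pools. Tapbp, which encodes tapasin, had 125 and 109 in the normal-diet CCl4 pools, against 95.9 and 86.6 in the oil pools, and 93.7 and 114 in the Western-diet CCl4 pools, against 100.8 and 105 in the oil pools. Both genes were separated between treatments on normal diet and overlapped on Western diet. On normal diet the change of Tap2 was 0.36 ± 0.17 (adjusted p = 0.161) and that of Tapbp 0.35 ± 0.14 (adjusted p = 0.087), so neither passed. Under quantile normalization Tapbp was at 0.49 and passed (adjusted p = 0.044).

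The 3 immunoproteasome subunits gave no call with CCl4. Psmb8 had 37.7 and 26.4 in the normal-diet CCl4 pools of 12 and 24 weeks, against 23.6 and 27.7 in the oil pools, and 30.1 and 30.1 in the Western-diet CCl4 pools, against 25.3 and 25.2 in the oil pools. Psmb9, the neighbour of Tap1, had 30.03 and 16.4 in the normal-diet CCl4 pools, against 13.3 and 17.1 in the oil pools, and 18.1 and 18.4 in the Western-diet CCl4 pools, against 13.5 and 16.8 in the oil pools. For both genes the normal-diet CCl4 pool of 12 weeks was the highest liver pool, the CCl4 pool of 24 weeks was below its oil pool on normal diet, and the Western-diet groups did not overlap. Psmb10, which lies outside the MHC, had 39.5 and 27.8 in the normal-diet CCl4 pools, against 32.2 and 31.6 in the oil pools, and 26.8 and 30.9 in the Western-diet CCl4 pools, against 25.1 and 28.5 in the oil pools. Its groups overlapped on both diets. Over both diets the changes were 0.27 ± 0.12 for Psmb8, 0.39 ± 0.18 for Psmb9 and 0.08 ± 0.12 for Psmb10 (adjusted p = 0.117, 0.127 and 0.649).

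Nlrc5, the transactivator, had 20.05 and 15.4 in the normal-diet CCl4 pools of 12 and 24 weeks, against 12.3 and 10.3 in the oil pools. On Western diet Nlrc5 had 14.9 and 16.5 in the CCl4 pools, against 17.1 and 17.9 in the oil pools. Both pools were higher with CCl4 on normal diet and both were lower with CCl4 on Western diet, with no overlap on either. Nlrc5 rose by 0.60 ± 0.16 with CCl4 on normal diet (adjusted p = 0.028), and its change on Western diet was -0.15 ± 0.16 (adjusted p = 0.619). On normal diet the call was lost with the oil pool of 24 weeks left out (0.51, adjusted p = 0.175), with the CCl4 pool of 12 weeks left out (0.42, adjusted p = 0.189), with that of 24 weeks left out (0.78, adjusted p = 0.0507), and without either Western-diet oil pool (adjusted p = 0.0557 and 0.0560). It was also lost under quantile normalization (0.52, adjusted p = 0.0534).

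Whether CCl4 acted differently on Western than on normal diet was tested as an interaction. No member passed in limma, edgeR or DESeq2, 1 had an unadjusted p under 0.05 in limma, and 0.103% of all genes were called. The member closest to a call was Nlrc5, whose CCl4 change on Western diet minus that on normal diet was -0.75 ± 0.23 (adjusted p = 0.395). The interaction was negative for 9 of the 10 members, with a median of -0.28, beside -0.03 and 46.5% above 0 for all tested genes. A difference between the diets in the CCl4 response of these genes was thus not detectable with these pools.

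Pair by pair, the members stood highest in the normal-diet CCl4 pool of 12 weeks, the top liver pool for all but Tap2 and B2m. At 12 weeks on normal diet, 9 of 10 members were higher in the CCl4 than in the oil pool, B2m being the exception, with a median log2 difference of 0.42, and 2 members (Tap1 and Psmb9) were higher by at least 2-fold, as were 11.5% of all tested genes. The all-gene median of that pair was 0.02. At 24 weeks on normal diet 5 of 10 members were higher in the CCl4 pool, with a median of 0.11, and on Western diet 5 of 10 were higher at 12 weeks and 7 of 10 at 24 weeks, with medians of 0.04 and 0.11. All 10 members were lower in the normal-diet CCl4 pool of 24 weeks than in the one of 12 weeks, by a median of -0.37, beside -0.02 over all tested genes, of which 46.6% were higher at 24 weeks. Tap1 and Psmb9 differed most in that step, by -0.96 and -0.84. These are differences between single pools of different mice and carry no test.

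Duration itself, 24 minus 12 weeks averaged over the 4 combinations of diet and treatment, gave no called member in limma, edgeR or DESeq2 and none at an unadjusted p under 0.05. The share called over all genes was 0.0% in limma, where 1475 genes had an unadjusted p under 0.05, and 1 gene was called by edgeR and 90 by DESeq2. The members' median change with duration was -0.06.

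Western diet was compared with normal diet, to ask what the diet did. With oil, no member passed in limma, edgeR or DESeq2, against 1.99% of all genes called. H2-D1 and Nlrc5 had an unadjusted p under 0.05 there, at 0.30 ± 0.11 and 0.60 ± 0.16 (adjusted p = 0.226 and 0.116). Nlrc5 had 17.1 and 17.9 in the Western-diet oil pools, against 12.3 and 10.3 in the normal-diet oil pools, without overlap, and H2-D1 had 204 and 226 on Western diet, against 173 and 177 on normal diet. With CCl4, no member passed in any of the 3 tools and none had an unadjusted p under 0.05, against 0.0474% of all genes called. There 9 of 10 members were lower on Western diet, with a median of -0.16, and the exception was B2m at 0.09 ± 0.17. H2-D1, at -0.00 ± 0.11, took the opposite sign in edgeR and DESeq2.

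Western diet with CCl4 was compared with normal diet with oil as the joint exposure. H2-D1 rose by 0.40 ± 0.11 (adjusted p = 0.031), with 235 and 228 in the exposed pools, against 173 and 177 in the normal-diet oil pools. It was the only member called, 1 of 10 against 25.9% of all genes. H2-D1 kept the call without either normal-diet CCl4 pool and lost it without any of the other 6 pools, with adjusted p = 0.0674 to 0.108, and its value was 0.62 under quantile normalization. Nlrc5 was at 0.45 ± 0.16 (adjusted p = 0.075) and Tap1 at 0.48 ± 0.27 (adjusted p = 0.212), and the median of the members was 0.20.

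**Figure D2:**
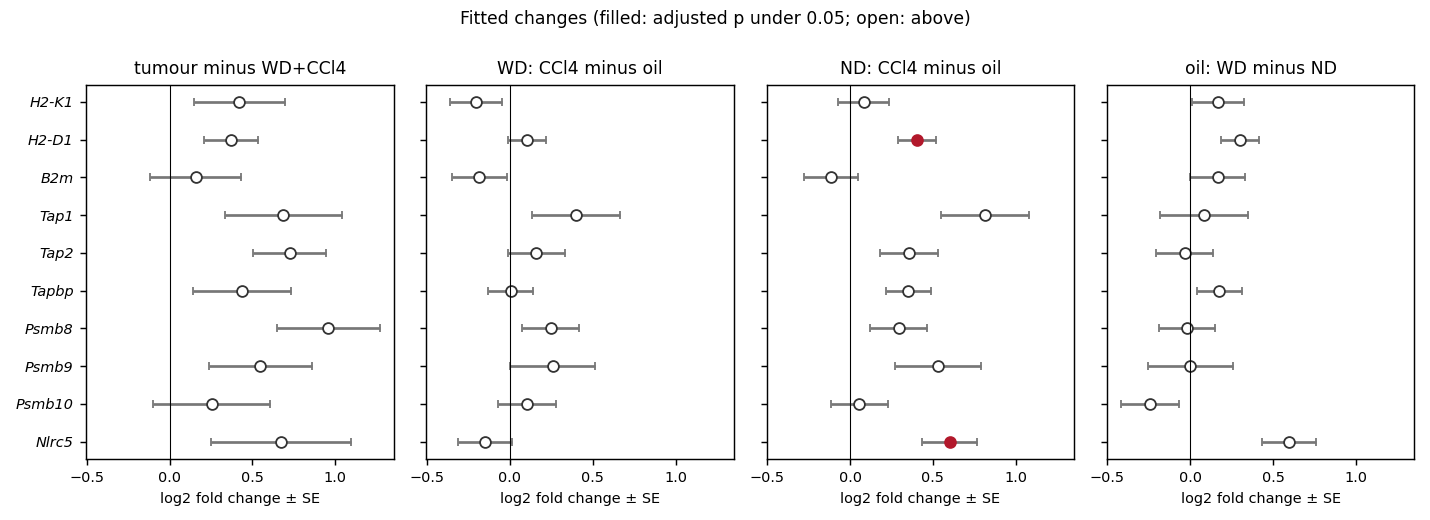
Fitted log2 fold change of each gene (x axis) with its standard error for tumours minus Western-diet CCl4 livers, CCl4 minus oil on Western diet, CCl4 minus oil on normal diet, and Western minus normal diet with oil. Filled points passed the adjusted p of 0.05, which in these comparisons were H2-D1 and Nlrc5 with CCl4 on normal diet. All 10 points of the tumour panel lie above 0, and none is filled.

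Tumours were compared with the livers of the same exposure, Western diet with CCl4, and then with normal-diet oil livers. All 10 members had fitted values above 0 in both comparisons, with medians of 0.49 and 0.79, beside 0.00 and 0.01 over all tested genes. Against the exposed livers none passed in limma, edgeR or DESeq2, 2 had an unadjusted p under 0.05, and 0.972% of all genes were called. Against normal-diet oil livers 1 of 10 rose, H2-D1, and 10.6% of all genes were called, so that share is the background's. The spread in these fits includes the difference between the tumours, which came from single mice, and the comparisons share the tumour libraries.

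The tumours agreed closely for H2-D1 and B2m and differed for most others. H2-D1 had 310.4 and 289 in tumours 1 and 2, against 235 and 228 in the Western-diet CCl4 pools and 173 and 177 in the normal-diet oil pools. It rose by 0.77 ± 0.16 against normal-diet oil livers (adjusted p = 0.027), and was at 0.37 ± 0.16 against the exposed livers (adjusted p = 0.310). The call held without either tumour and was lost without any 1 of the 8 liver pools, with adjusted p = 0.0639 to 0.284. H2-K1 had 1959 and 1473 in the tumours, against 1428 and 1286 in the exposed livers, and B2m had 2101 and 2161, against 2175 and 1818. Both tumours were above both exposed livers for H2-K1, and within the range of the 8 liver pools for B2m.

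Tap2 had 60.7 and 49.3 in tumours 1 and 2, against 24.6 and 38.0 in the Western-diet CCl4 pools, and Psmb8 had 78.3 and 42.9, against 30.1 and 30.1. Both genes were above all 8 liver pools in both tumours, as was H2-D1. That made 3 of 10 members, against 10.2% of all tested genes. The change against exposed livers was 0.73 ± 0.22 for Tap2 and 0.96 ± 0.31 for Psmb8 (adjusted p = 0.165 and 0.187). Against normal-diet oil livers it was 0.85 ± 0.22 for Tap2 and 1.18 ± 0.31 for Psmb8 (adjusted p = 0.050 and 0.052). Neither was called in limma. Against normal-diet oil livers Psmb8 passed in edgeR (adjusted p = 0.045), in DESeq2 (adjusted p = 0.0046) and with pseudocount 0.1 (adjusted p = 0.0491), and Tap2 passed in DESeq2 (adjusted p = 0.018) and with pseudocount 0.1 (adjusted p = 0.0490). Set only against the exposed livers, both tumours were higher for 6 of 10 members (H2-K1, H2-D1, Tap1, Tap2, Psmb8 and Psmb9), against 20.6% of all tested genes.

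Tapbp and Psmb10 were high in tumour 1 alone. Tapbp had 191 and 104 in tumours 1 and 2, against 93.7 and 114 in the exposed livers, and Psmb10 had 49.3 and 23.4, against 26.8 and 30.9. For both, tumour 1 was above all 8 liver pools and tumour 2 was not. For Psmb10, tumour 2 was below all 8 liver pools, the lowest of which had 25.1. The higher tumour exceeded the lower 1.84-fold for Tapbp and 2.10-fold for Psmb10. Nlrc5 had 15.0 and 40.3 in tumours 1 and 2, against 14.9 and 16.5 in the exposed livers, a 2.68-fold gap between tumours, and Tap1 had 38.6 and 59.8, against 29.5 and 31.7. Here tumour 2 was the higher one. For Tap1 and for Psmb9, which had 29.6 and 24.0 in tumours 1 and 2, against 18.1 and 18.4 in the exposed livers, both tumours were above both exposed livers. With tumour 2 left out, 4 members passed against the exposed livers (Tap2, Tapbp, Psmb8 and Psmb10), and with tumour 1 left out 1 passed (Nlrc5). Such a fit has a lone tumour and takes its spread from the livers.

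Immunoproteasome subunits were set against constitutive ones as a log2 ratio within each library, which can change through either gene. Psmb8 over Psmb5 averaged -0.68 ± 0.20 in the 4 CCl4 pools and -1.08 ± 0.24 in the 4 oil pools (SD, n = 4 each; difference 0.41, exact permutation p = 0.0571, two-sided). Psmb9 over Psmb6 averaged -2.15 ± 0.32 in CCl4 pools and -2.77 ± 0.32 in oil pools (SD, n = 4 each; difference 0.62, exact permutation p = 0.0857). Psmb10 over Psmb7 averaged -1.89 ± 0.20 in CCl4 pools and -2.20 ± 0.11 in oil pools (SD, n = 4 each; difference 0.31, exact permutation p = 0.0571). All 3 ratios were higher on average with CCl4, groups overlapped in each, and none passed, with an adjusted p of 0.0857 over the 3 ratios and a smallest possible p of 0.0286. Set against the oil pool of its own diet and duration, the CCl4 pool was higher in all 4 pairs for each ratio. The 3 ratios were read in the same 4 pairs, so they are not independent of each other. The differences ran from 0.25 to 0.63 for Psmb8 over Psmb5 and from 0.17 to 1.31 for Psmb9 over Psmb6. For Psmb10 over Psmb7 they ran from 0.13 to 0.43. An exact permutation test within these 4 pairs gave p = 0.125 for each ratio, the smallest that 4 pairs allow. In tumours 1 and 2 the ratios were -0.08 and 0.21 for Psmb8 over Psmb5, the only tumour values above all 8 liver pools in both tumours. They were -2.11 and -1.79 for Psmb9 over Psmb6, and -1.24 and -2.03 for Psmb10 over Psmb7.

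**Figure D3:**
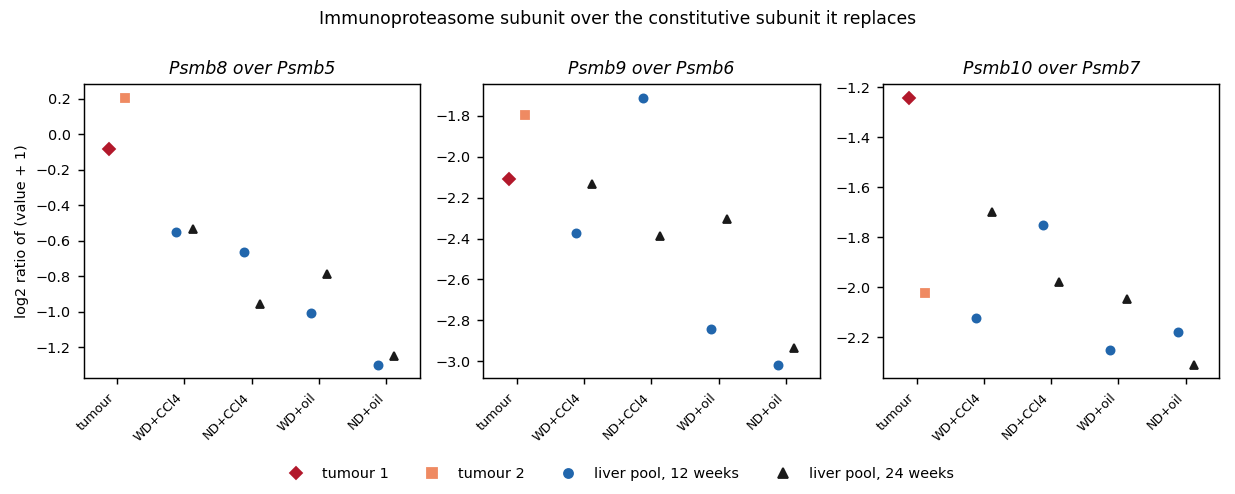
Log2 ratio of each immunoproteasome subunit to the constitutive subunit it replaces (y axis, own scale per panel, 1 added to each value) in every library, by group along the x axis. For Psmb8 over Psmb5, tumours 1 and 2 sit at -0.08 and 0.21, above all liver pools, and the 2 lowest pools are the normal-diet oil pools.

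The denominators moved too. Psmb5, Psmb6 and Psmb7 fell in the joint exposure, with changes of -0.50 ± 0.13, -0.47 ± 0.14 and -0.48 ± 0.12 (adjusted p = 0.023, 0.039 and 0.023). Psmb5 had 44.6 and 44.0 in the Western-diet CCl4 pools, against 59.5 and 67.2 in the normal-diet oil pools. None of the 3 was called with CCl4 on either diet alone. Over both diets, the span of the ratios above, Psmb6 changed by -0.23 ± 0.10 and Psmb7 by -0.23 ± 0.09 (adjusted p = 0.104 and 0.072). Psmb10 changed by 0.08 ± 0.12 there, so the difference in Psmb10 over Psmb7 came more from the lower Psmb7 than from Psmb10. Of 16 other subunits and assembly factors of the 20S core, none rose and 6 fell with CCl4 on normal diet, none rose and 7 fell over both diets, and none rose and 10 fell in the joint exposure. Over all tested genes 10.6%, 14.2% and 10.2% fell in these comparisons, in that order. Over both diets Psmb2 changed by -0.34 ± 0.08, Psma4 by -0.36 ± 0.09, Psma5 by -0.34 ± 0.10 and the assembly chaperone Psmg2 by -0.45 ± 0.12. The 20S list had a median of -0.42 with CCl4 on normal diet, where the 3 immunoproteasome subunits had a median of 0.29. Of the 3 genes of the PA28 activator, which caps the proteasome, none rose and 1 (Psme1) fell in the joint exposure, at -0.39 ± 0.10 (adjusted p = 0.026).

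Of 8 peptide trimming and loading partners, which work in the endoplasmic reticulum, the cytosol or endosomes, 1 rose and 4 fell over both diets with CCl4. Those that fell were general chaperones as well as loading partners: calreticulin (Calr) changed by -0.59 ± 0.11, calnexin (Canx) by -0.32 ± 0.08, the disulfide isomerase Pdia3 by -0.50 ± 0.11 and BiP (Hspa5) by -0.89 ± 0.17. The endosomal aminopeptidase Lnpep rose by 0.38 ± 0.11. Over all tested genes 19% rose and 14.2% fell over both diets. Calr had 756 and 686 in the normal-diet CCl4 pools, against 1088 and 1296 in the oil pools.

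Other class I and class I-like genes included larger changes than those of the members. Of 17 listed, 14 were tested, and 7 rose and 2 fell over both diets with CCl4. On normal diet alone 4 rose and 2 fell, and on Western diet alone 1 rose. Of all tested genes, 19% rose and 14.2% fell over both diets, and 15.3% and 10.6% on normal diet. On Western diet 4.29% rose and 2.52% fell, so the count of 1 there is near the background. H2-Q1, a gene of the Q region, had 61.0 and 63.1 in the normal-diet CCl4 pools, against 8.34 and 9.42 in the oil pools, and 45.4 and 53.2 in the Western-diet CCl4 pools, against 23.8 and 15.9 in the oil pools. The groups were far apart on both diets, and H2-Q1 rose by 1.98 ± 0.13 (adjusted p = 4.91e-05). H2-M2 rose by 1.17 ± 0.23, H2-Q2 by 0.65 ± 0.16 and H2-T24 by 0.61 ± 0.14, all from low counts: H2-M2 had at most 4.22 and H2-Q2 at most 2.29 in any library. In the oil pools H2-M2 had at most 0.964 and H2-Q2 at most 0.513. Both genes passed the filter only through CCl4 pools and tumours, so their rises lean on the libraries that let them in. Cd1d1, which presents lipids, and Azgp1, a secreted class I-like protein, fell. Q-region genes share near-identical sequence, H2-Q6 was listed at 0 in all 10 libraries, and which Q gene changed is uncertain.

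Class II genes, which present peptides from outside the cell, rose with CCl4 on both diets. Of 10 listed, 8 were tested, and 7 rose and none fell with CCl4 on normal diet, on Western diet and over both, with list medians of 1.74, 1.23 and 1.48. The shares of all tested genes that rose there were 15.3%, 4.29% and 19%. H2-Aa and H2-Eb1, chains of class II dimers, rose by 1.55 ± 0.13 and 1.53 ± 0.17 over both diets, and the class II transactivator Ciita by 1.25 ± 0.21 (adjusted p = 0.00305). Ciita had 4.38 and 8.07 in the normal-diet CCl4 pools, against 0.532 and 2.15 in the oil pools. In the pair of 24 weeks on normal diet the class II median was 2.04, above its 1.28 at 12 weeks, whereas the members had 0.11 at 24 weeks and 0.42 at 12 weeks.

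The interferon-inducible genes, too, differed most in the normal-diet pair of 12 weeks. Of 15 interferon-inducible GTPases and chemokines, 6 rose and none fell with CCl4 on normal diet, with a list median of 0.71, and 4 rose and none fell over both diets. Of all tested genes, 15.3% rose on normal diet and 19% over both diets, where the count of 4 is near that background. On Western diet none was called in limma, against 6.82% of all genes, and 3 had an unadjusted p under 0.05, against 24.3%. Gbp3 and Gbp2, guanylate-binding proteins, rose by 1.03 ± 0.20 and 0.77 ± 0.12 over both diets, and the T cell attractants Cxcl10 and Cxcl9 by 0.93 ± 0.23 and 0.61 ± 0.18. The list's median was 1.06 in the normal-diet pair of 12 weeks, 0.33 at 24 weeks, and 0.07 and 0.05 in the Western-diet pairs. Cxcl10 had 15.7 and 7.63 in the normal-diet CCl4 pools of 12 and 24 weeks, against 3.68 and 3.29 in the oil pools.

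Among 19 tested genes of interferon gamma signalling and class I regulation, 6 rose and 2 fell with CCl4 on normal diet, 2 rose and none fell on Western diet, and 6 rose and 3 fell over both. These counts stand beside 15.3% and 10.6% of all genes on normal diet, 4.29% and 2.52% on Western diet, and 19% and 14.2% over both. The receptor gene Ifngr1 rose by 0.64 ± 0.12 over both diets and the factor Irf8 by 0.99 ± 0.12. Irf1, which binds class I and Tap1 promoters, was at 0.15 ± 0.13 on normal diet (adjusted p = 0.415). Of the factors that Nlrc5 joins on DNA, Rfxank, Rfxap and Nfyb fell and Nfya rose over both diets, with -0.66 ± 0.13 for Rfxank and 0.49 ± 0.12 for Nfya, and Rfx5 was at -0.20 ± 0.12 (adjusted p = 0.228). Ifng itself was under the filter, at 0.26 or less in every library and listed at 0 in both tumours.

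**Figure D4:**
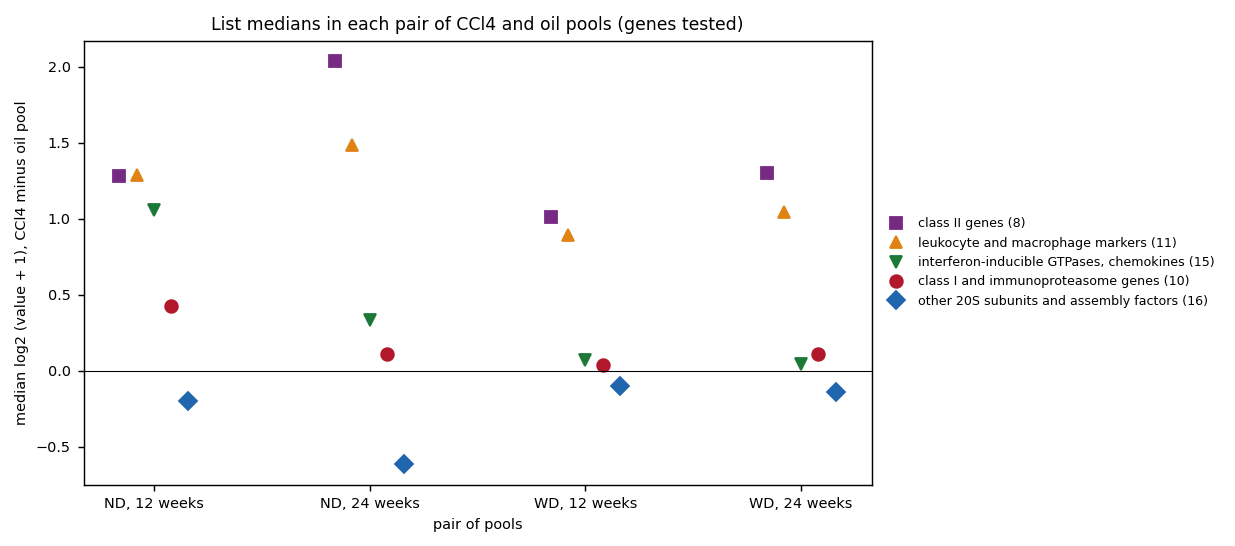
Median log2 difference between the CCl4 and the oil pool (y axis) in each of the 4 pairs of pools (x axis) for 5 gene lists, with 1 point per list and pair and the number of tested genes in the legend. Class I and interferon-inducible lists are highest in the normal-diet pair of 12 weeks (0.42 and 1.06), class II and leukocyte lists in the normal-diet pair of 24 weeks (2.04 and 1.49), and the 20S list is below 0 in all 4 pairs.

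Markers of several cell types moved with CCl4 as well. Beside the counts that follow, 15.3% of all tested genes rose and 10.6% fell with CCl4 on normal diet. On Western diet 4.29% rose and 2.52% fell. Of 11 tested leukocyte and macrophage markers, 10 rose and none fell on normal diet, 6 rose and none fell on Western diet, and none was at 0 in any library. Their summed normalised count was 444 to 770 in the CCl4 pools, 207 to 476 in the oil pools and 405 to 583 in the tumours. Of 8 tested T and NK cell markers, 1 rose (Nkg7) and 1 fell (Cd4) with CCl4 on normal diet, and none was called over both diets in limma, with 1 at an unadjusted p under 0.05. In the joint exposure 3 rose (Cd8a, Cd8b1 and Nkg7) and 1 fell (Cd4), against 25.9% of all tested genes called. With Western diet and oil 1 rose (Nkg7), against 1.99% called, and 6 had an unadjusted p under 0.05, against 17.5%. Values were low: Cd8b1 had at most 1.03 and reached 1 only in Western-diet pools. The T and NK sum was 10.1 to 15.5 in CCl4 pools, 7.94 to 17.7 in oil pools and 6.33 to 8.99 in tumours, and Prf1 and Ncr1 were at 0 in some libraries. In the normal-diet CCl4 pools the leukocyte sum was 698 at 24 weeks and 444 at 12 weeks, while all 10 members were lower at 24 weeks. Against exposed livers, the leukocyte markers had a median of -0.73 in the tumours, with 1 of 11 above 0, where all 10 members were above 0. Of 7 endothelial markers 4 rose and none fell on normal diet, none was called on Western diet, and their sum was 196 to 305 in CCl4 pools, 166 to 237 in oil pools and 207 to 240.1 in tumours. Of 7 markers of stellate cells, the collagen-producing cells of the liver, 6 rose and none fell on normal diet and 4 rose and none fell on Western diet. The stellate sum was 548 to 1044 in CCl4 pools, 222 to 432 in oil pools and 386 to 690.05 in tumours, and the stellate median was -0.78 in tumours against exposed livers. Of 10 tested hepatocyte markers none rose and 3 fell on normal diet (Apoa1, Fgb and Serpina1c), with a median of -0.67, and 1 fell on Western diet. The hepatocyte sum was 81111 to 120195 in CCl4 pools, 124439 to 161532 in oil pools and 83282 to 250359 in tumours. Most of that sum was Alb, at 54802 where the sum was lowest and 203789 where it was highest, in tumour 2. Against exposed livers the hepatocyte markers had a median of -0.08 in the tumours, with 5 of 10 above 0. There 1 fell, Cyp2e1, as did 0.506% of all tested genes. Cyp2e1 had 556 and 478 in the tumours, against 5042 and 4067 in the exposed livers. None of the endothelial, stellate or hepatocyte markers was at 0 in any library. The part of any of these cells in the members' changes was not tested.

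Across the 10 libraries the members did not form 1 block. Tap1 and Psmb9 had the highest Pearson r of any pair of members at 0.885 (n = 10 libraries, on log2 values). Their upstream windows overlap, and so do 212 of their exonic bases, where reads cannot be assigned. The part of either overlap in this r was not tested. Psmb8 correlated with Tap2, Tapbp and Psmb9 at 0.860, 0.855 and 0.854. B2m had no r above 0.537 with any member, and Nlrc5 and Psmb10 had the lowest r, -0.359, with Nlrc5 highest in tumour 2 and Psmb10 in tumour 1. The genes outside the list whose pattern was most like the members' mean z score were Dhx58 (r = 0.972), Trim12c (0.959), 2610015P09Rik (0.946), Tapbpl (0.942), Traf3ip1 (0.941), Xaf1 (0.929), Oasl1 (0.927), Cdc25c (0.926), Stat2 (0.926) and Pafah1b1 (0.925). Cdc25c passed the filter only through the tumours, at 1.56 and 1.16, and had at most 0.716 in the liver pools, so its likeness rests on few reads. Dhx58 had 21.7 and 11.8 in the normal-diet CCl4 pools, against 9.27 and 8.87 in the oil pools, and 33.9 and 21.0 in tumours 1 and 2. Tapbpl, a tapasin-related gene, had 52.0 and 32.0 in the tumours, against 25.2 and 27.3 in the Western-diet CCl4 pools. These correlations describe 10 libraries that differ in exposure, tissue and depth, and carry no test.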

How the data were processed

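Per the labels, flash-frozen liver or tumour was extracted with an RNeasy kit, and poly-A libraries were made from 200 ng of RNA with a TruSeq kit. The aligner STAR and the build mm10 come from the submitters' processing notes. Counter, annotation, strand setting and scaling: not given in the sources used here. Per gene, the authors deposited a normalised signal, the read count times 1 constant for each library: 100% of values were whole reads within 0.01 reads, with totals of 23206229 to 30137802. Every column was mapped (0 left out). Precision at low values is that of a count, so a 0 allows up to 3 reads, which covers counting error only.

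The 10 genes and the lists compared with them were chosen with earlier results of these data known. Of 162 list entries 157 matched the table, and Trac, Trbc2, Adgre1, Jchain and Tf did not. Log2(value + 1) was fitted with limma 3.58.1 in R 4.3.3 (eBayes with trend, two-sided) on genes reaching a value of 1 in 2 or more libraries. Each of the 4 diet and treatment combinations had its mean, and duration was a covariate, with 3 residual degrees of freedom for livers and 4 with tumours. Benjamini-Hochberg adjustment ran over all tested genes, threshold 0.05. Subunit ratios used exact permutation tests (scipy 1.17.1). Besides the members, 8 related genes, up to 4 called genes per list and the 10 genes most like the members were eligible to be named (1 of the related genes is not reported here), and marker lists are given mainly by counts and sums. Other genes named in a count were chosen after their values were seen. Alternatives were edgeR 4.0.16, which called 3268 genes for CCl4 on normal diet from the recovered reads, DESeq2 1.42.0, which called 3382, each library left out, pseudocount 0.1, no filter, all 10 libraries fitted together, quantile normalization, no trend, no duration term and, added after seeing the data, pools paired by diet and duration. The fits were tested on simulated data.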

Additional observations from a re-analysis of the deposited data

Results flagged for a closer look

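The CCl4 response of Nlrc5, the class I transactivator, pointed in opposite directions on the diets. Both pairs of pools were lower with CCl4 on Western diet and both were higher with CCl4 on normal diet. Nlrc5 was flagged because of this pattern of signs, so the pattern is no separate support for a difference. How many of all tested genes show it was not computed. The change on Western diet minus that on normal diet was -0.75 ± 0.23 (SE of the limma fit), with an adjusted p of 0.395 over all tested genes, so it did not pass. Nlrc5 had 14.9 and 16.5 in the Western-diet CCl4 pools, against 17.1 and 17.9 in the Western-diet oil pools, and 20.05 and 15.4 in the normal-diet CCl4 pools, against 12.3 and 10.3 in the normal-diet oil pools.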

How the results depend on the processing

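Which members were called depended on the settings. With CCl4 on normal diet the count was 2 of 10. It was 0 without the filter on low values, 1 without the trend, 0 with all 10 libraries in the fit and 0 to 4 with a library left out. It was 3 in edgeR, in DESeq2 and with pseudocount 0.1, Tap1 joining H2-D1 and Nlrc5 in each, and under quantile normalization Tapbp was called and Nlrc5 was not. Over both diets the count of 2 became 0 without the filter, 0 without the trend, 0 with all 10 libraries and 0 to 3 with a library left out. For the joint exposure the count of 1 became 0 in the same 3 settings and 0 to 2 with a library left out. For tumours against normal-diet oil livers the count of 1 became 3 with pseudocount 0.1, 4 without the duration term, 2 in edgeR, 5 in DESeq2 and 0 to 5 with a library left out. Against exposed livers the count of 0 became 1 to 4 with a tumour left out, and was 0 otherwise. Over the 6 called member results, 46 alternative values kept the call, 55 lost it and 0 changed direction. Among members that were not called, H2-K1 and B2m changed sign under quantile normalization over both diets, on Western diet, in the joint exposure and with duration, as did B2m on normal diet and Psmb9 with Western diet and oil. The subunit ratios kept their direction, at 0.34 to 0.51 for Psmb8 over Psmb5, 0.48 to 0.78 for Psmb9 over Psmb6 and 0.25 to 0.39 for Psmb10 over Psmb7. None passed in any setting. With a pool left out or with pools paired, the exact test cannot give a p under 0.05, so those settings say nothing about the threshold. The causes were not tested. A replicate block, chosen after seeing the data, paired the CCl4 and oil pools of the same diet and duration, which share no mice. With it limma called 3 members on normal diet (H2-D1, Tap1 and Nlrc5), 0 on Western diet, 1 over both diets (Tap1) and 0 in the interaction. In the same pairing the ratio differences were 0.41, 0.62 and 0.31 (exact permutation p = 0.125 each). With 1 pool per condition, differences of the size seen between single pools of Psmb9 or Tap1 cannot be separated from variation among pools.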
